A study of Oryctolagus cuniculus with 12 samples.

Results

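The genes described here were those of oxidative phosphorylation, 51 of the 14621 genes in the deposited count table. They were chosen by their deposited symbol, which had to begin with NDUFA, NDUFB, NDUFC, NDUFS or NDUFV and a number, with UQCR, ATP5, or COX or ND and a number, or to be SDHA to SDHD, CYC1, CYTB, ATP6 or ATP8. The mitochondrial genome encoded 11 of them, namely ND1 to ND6, CYTB, COX1 to COX3 and ATP6, and the nuclear genome encoded the other 40. The nuclear members comprised 19 subunits of complex I, 2 of complex II, 3 of complex III, 5 of complex IV and 5 of complex V, together with 5 assembly factors of complex IV and NDUFA4L2, a relative of the complex IV subunit NDUFA4. All 51 passed the count filter. The table carried no symbol for a further 26 genes of these families that the RefSeq gene table named, and these are given by count only.

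Oxidative phosphorylation takes place at the inner membrane of the mitochondrion. Complexes I and II take electrons from NADH and from succinate, complexes III and IV pass them on to oxygen, and complex V, the ATP synthase, makes ATP from the proton gradient that complexes I, III and IV build. Core subunits of complexes I, III, IV and V come from the mitochondrial genome, which is read as long transcripts that are cut into separate RNAs, and all other subunits are made from nuclear genes and imported. Cartilage has no blood vessels, and its cells are known to draw much of their ATP from glycolysis.

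RNA was sequenced in bulk from the mandibular condyle of the temporomandibular joint, the jaw joint, of wild-type rabbits, in 12 libraries. There were 3 libraries each of the control superficial zone, the OA superficial zone, the control condylar cartilage and the OA condylar cartilage, where the superficial zone is the fibrous tissue that lines the joint and OA is osteoarthritis produced by surgery, in which a 2.5 mm hole was punched through the joint's disc. The labels call the libraries biological replicates but name no animal, and they give neither age, time after surgery, whether control joints were operated on, nor whether an animal gave tissue of both zones. The p-values below therefore measure the spread between these samples, and in bulk tissue fewer cells of a type and less RNA per cell cannot be told apart.

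Library totals ranged from 7326255 to 16769536 counts. Some OA libraries were nearly the same. The biological coefficient of variation, edgeR's estimate of relative spread beyond counting error, was 0.0377 for the pair 2 and 3 in the superficial zone and 0.0535 for the pair 1 and 2 in the condylar cartilage, whereas all other pairs of a group lay between 0.195 and 0.582. Each of these pairs was summed and entered as 1 sample, which left n = 3 for control groups and n = 2 for OA groups. The libraries labelled OA superficial zone 1 and control condylar cartilage 3 stood apart from their groups and went against their labels. COL2A1, the main cartilage collagen, was at 51232 CPM (counts scaled to a common library total) in the former against 2511 and 2581 in the other OA superficial zone libraries, and at 937 CPM in the latter against 42758 and 56706. PRG4, the lubricin of the joint surface, followed the zone labels in both states, these libraries included. It was at 167 to 280 CPM in the control and 239, 445 and 453 CPM in the OA superficial zone, and at 18.9 to 40.8 CPM in the control and 109, 120 and 61.4 CPM in the OA condylar cartilage. Ribosomal RNA took 0.107 to 0.378% of counts in control libraries and 0.732 to 3.31% in OA libraries.

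The messenger RNAs of the mitochondrial genome split into 2 sets that did not vary together. COX2, ATP6, COX3, ND3, ND5 and CYTB differed by large factors between libraries of the same group, whereas ND1, ND2, COX1 and ND6 did not follow them. Among the members, the set with the large swings holds the genes that lie beyond COX1 on the mitochondrial genome, apart from ND4 and ND6. The swings crossed both states and both zones. A mitochondrial ribosomal RNA gene outside the members, ENSOCUG00000029082, also moved with the split. It was at 40.6 to 102 CPM in the libraries low for ATP6 and at 99.7 to 852 CPM in the others. For another such gene, ENSOCUG00000029084, the ranges were 652 to 6766 CPM and 2194 to 11066 CPM.

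ATP6, a subunit of the proton channel of complex V, was at 900.4, 16.5 and 5.98 CPM in libraries 1, 2 and 3 of the control superficial zone and at 11, 1795 and 1749 CPM in those of the OA superficial zone. In the condylar cartilage it was at 1445, 47.9 and 1135 CPM in control and at 5.80, 39.7 and 1444 CPM in OA. Each group thus held libraries above 900 CPM and libraries below 50 CPM, and no group was separated from another. CYTB, the mitochondrially encoded subunit of complex III, was low in the same libraries, at 1058, 17.4 and 6.19 CPM in the control superficial zone, 12.3, 1644 and 1611 in the OA superficial zone, 1942, 44.4 and 1422 in the control condylar cartilage and 7.80, 45.1 and 1419.8 in the OA condylar cartilage. ND5, a proton-pumping subunit of complex I, was at 1229, 19.0 and 9.12 CPM, 11.7, 2512 and 2445 CPM, 2323, 49.9 and 1801 CPM, and 7.13, 50.4 and 1794 CPM in the same order of groups. The libraries that were low for ATP6 were low for ND5 as well.

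ND3, a small membrane subunit of complex I, had no count at all in library 3 of the control superficial zone, where 3 counts would be 0.315 CPM. Its other values were 196 and 1.07 CPM in that group, 0.552, 247 and 233 CPM in the OA superficial zone, 371, 6.37 and 224 CPM in the control condylar cartilage and 0.557, 3.98 and 200.4 CPM in the OA condylar cartilage. COX2, the subunit of complex IV that takes electrons from cytochrome c, ranged from 12 to 1760.0 CPM and COX3, also a core subunit of the enzyme, from 38.4 to 2511 CPM. Both had their lowest values in the libraries named for ATP6, although their lowest values stood at a higher level.

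COX1, the catalytic subunit of complex IV, did not share these swings. It was at 3929, 5861 and 5307 CPM in the control superficial zone and at 1072, 5761 and 5736 CPM in the OA superficial zone. In the condylar cartilage it was at 8001, 6089 and 6826 CPM in control and at 4797, 5189 and 6216 CPM in OA. Apart from library 1 of the OA superficial zone it stayed within 3929 to 8001 CPM, also in the libraries with little ATP6. ND1 and ND2, membrane subunits of complex I, lay between 689 and 1198 CPM and between 430.2 and 1020.3 CPM outside that library. They were highest in library 2 of the control superficial zone, which was among the lowest for ATP6 and ND5. ND6, the complex I subunit read from the opposite strand, ranged from 23.2 to 103 CPM.

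**Figure D1:**
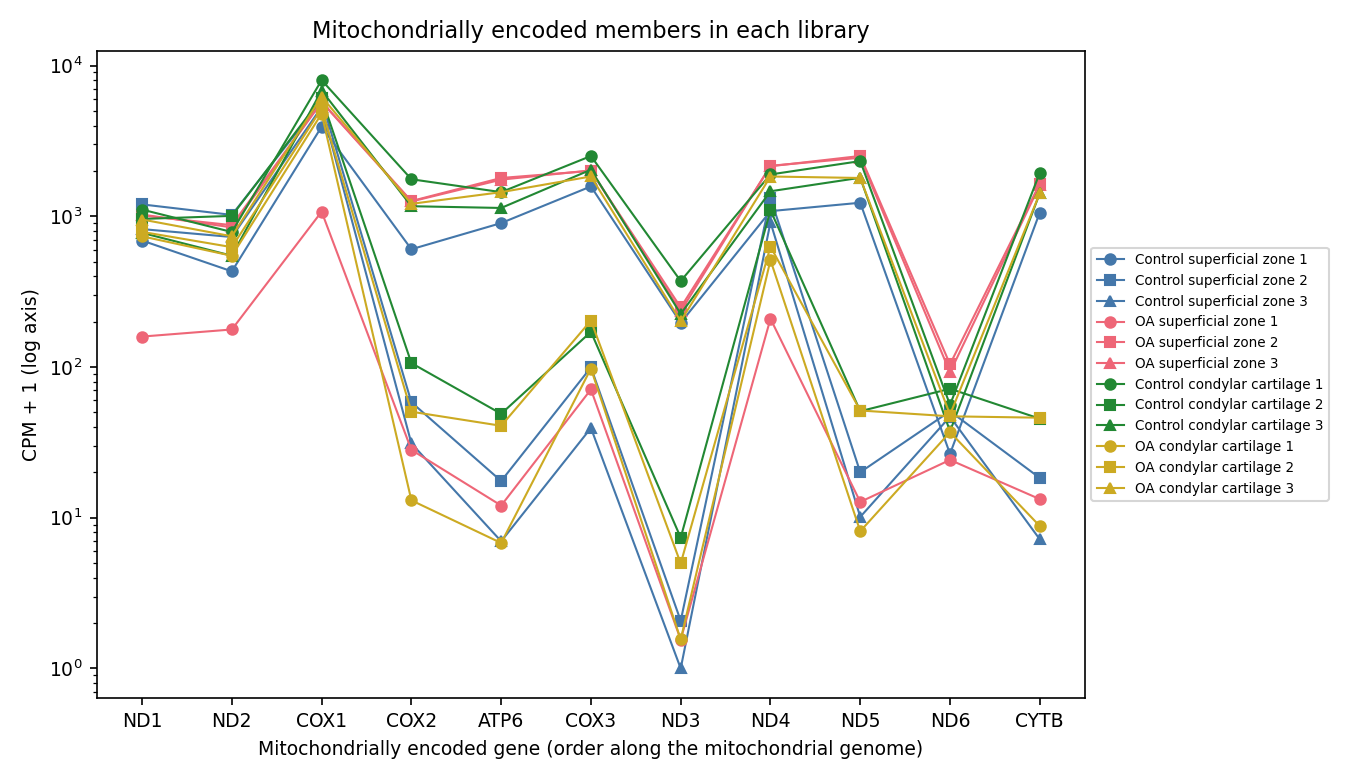
Level of each mitochondrially encoded member in each of the 12 libraries, as CPM plus 1 on a log axis, with genes in their order along the mitochondrial genome and 1 line per library. COX2, ATP6, COX3, ND3, ND5 and CYTB fall far below the other libraries in 6 libraries of all 4 groups, while ND1, ND2 and COX1 are low only in library 1 of the OA superficial zone.

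ND4, a proton-pumping subunit of complex I, lay between the sets. It was at 1081, 1319 and 912 CPM in the control superficial zone, 208, 2147 and 2162 in the OA superficial zone, 1894, 1097 and 1465 in the control condylar cartilage and 511, 628 and 1835 in the OA condylar cartilage. Its lowest 3 values were in libraries that were also low for ATP6, but in library 2 of the control superficial zone it exceeded library 1. The length that the deposited file gives for ND4 also moved with the split. It was 1361 to 1385 bases in libraries 2 and 3 of the control superficial zone and library 2 of the control condylar cartilage, 1192 to 1279 bases in OA superficial zone 1 and OA condylar cartilage 1 and 2, and 1467 to 1477 bases in the other 6. That range of 285 bases compares with 41.1 to 54.8 bases for the other mitochondrial members.

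Next to other abundant genes these swings were large. Among the 2075 genes that reached 100 CPM in the control superficial zone, the ratio of highest to lowest library, with 1 CPM added to each, had a median of 1.42. It was 197 for ND3, with no gene above it, 147 for CYTB, 129 for ATP6 and 121 for ND5. COX1 had a ratio of 1.49, and 824 genes had a larger one. In the OA condylar cartilage ND5 had the highest ratio of 1952 genes, at 221, and ATP6 followed at 213, against 1.30 for COX1. They ranked lower in the control condylar cartilage, where the ratio was 50.4 for ND3 with 31 of 2240 genes above it, 29.6 for ATP6 with 44 above it and 14.7 for COX3 with 59 above it.

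The near-duplicate pair of the OA condylar cartilage differed in these genes too. ATP6 had 104 counts in library 1 and 719 in library 2, a 6.85-fold difference in CPM. ND5 differed 7.07-fold, CYTB 5.78-fold, COX2 4.11-fold and COX3 2.09-fold, whereas COX1 differed 1.08-fold and ND1 1.07-fold. These are differences within what was counted as 1 sample, in a pair in which 8 of 10069 genes that reached 5 CPM in either library differed by more than 4-fold. In the pair of the OA superficial zone ATP6 differed by a factor of 0.975 and ND5 by 0.973.

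As a share of all mitochondrially encoded counts, COX2, ATP6, COX3, ND3, ND5 and CYTB together ranged from 1.14% (95% Wilson interval 1.06 to 1.21) in library 3 of the control superficial zone to 48.9% (48.7 to 49.0) in library 2 of the OA superficial zone. They held 47.5, 2.17 and 1.14% in the control superficial zone, 7.50, 48.9 and 48.6% in the OA superficial zone, 46.6, 4.40 and 44.6% in the control condylar cartilage and 1.92, 5.10 and 44.7% in the OA condylar cartilage. No library lay between 7.50 and 44.6%. All 11 mitochondrial members together took 0.120% of counts (0.118 to 0.122) in library 1 of the OA superficial zone and 0.764 to 2.12% elsewhere. These intervals cover counting error only. The 40 nuclear members took 0.0689% of counts in that library and 0.0920 to 0.130% elsewhere.

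**Figure D2:**
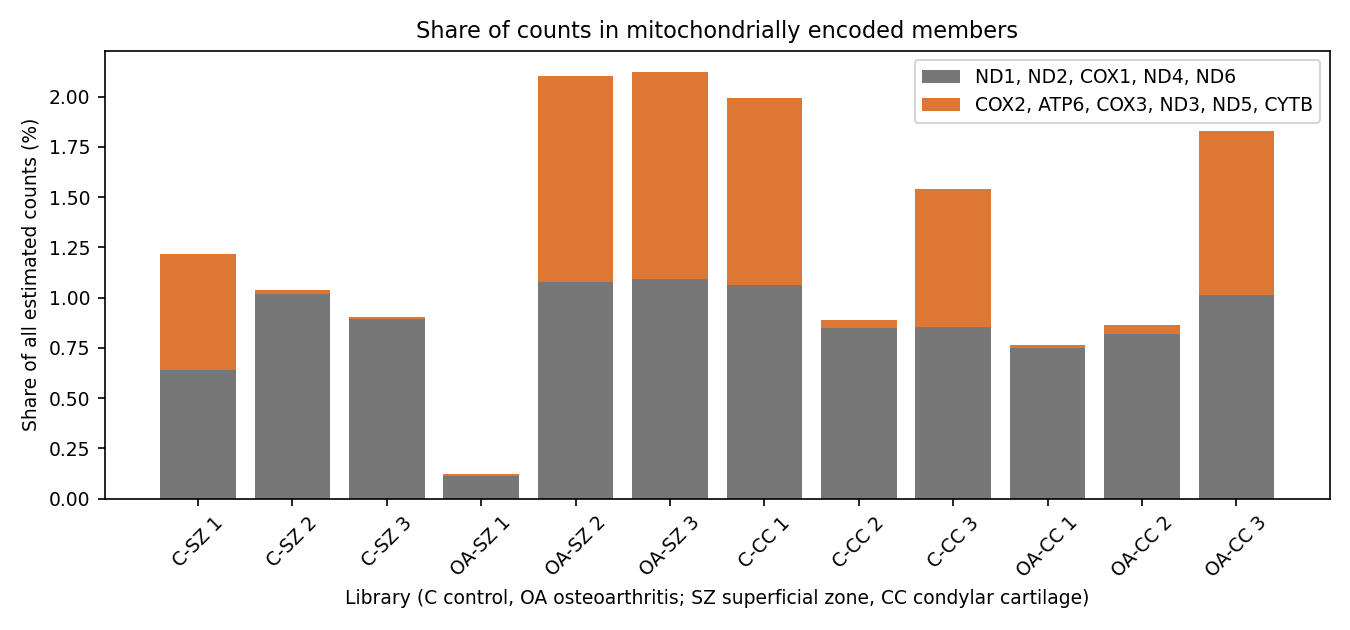
Share of all counts taken by the mitochondrially encoded members in each library, in percent, divided into COX2, ATP6, COX3, ND3, ND5 and CYTB and the other 5 genes. The former hold 44.6 to 48.9% of the mitochondrial counts in 6 libraries and 1.14 to 7.50% in the other 6, and both kinds of library occur in every group.

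In the main test no mitochondrial member differed between groups beyond this spread. In the quasi-likelihood test of edgeR, with p-values adjusted over the 14438 genes tested, none passed 0.05 in any of the 5 comparisons, and none had an unadjusted p under 0.05. In limma-voom with sample weights COX3, CYTB, COX2, ND5 and ATP6 were higher in the condylar cartilage than in the superficial zone of control tissue, with adjusted p of 0.0214 for COX3 to 0.0326 for ATP6. The median log2 fold change of all 11 mitochondrial members, OA against control, was 0.87 in the superficial zone and −0.31 in the condylar cartilage, with approximate standard errors (SE) of 1.59 to 2.43 for COX3, CYTB, ATP6, ND5, ND3 and COX2. The superficial zone median became 3.87 without library 1 of the control superficial zone, and the condylar cartilage median became −3.36 without library 3 of the OA condylar cartilage. The latter fit left the OA condylar cartilage with 1 sample. COX1 had log2 fold changes of −0.56 ± 0.58 (SE) and −0.31 ± 0.58 in the superficial zone and the condylar cartilage. In the comparison of zones in control, COX1 was the only mitochondrial member whose libraries did not overlap, at 5032 ± 995 CPM (SD, n = 3) in the superficial zone and 6972 ± 964 CPM (n = 3) in the condylar cartilage (log2 fold change 0.47 ± 0.51 SE, adjusted p = 0.745). A lack of overlap in that direction was found for 12.6% of all genes.

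Per length, in the deposited TPM (transcript abundance corrected for length) averaged over the 4 group means, COX1 was the highest member at 7816 TPM and ND6 the lowest mitochondrial one at 291 TPM. This average pools libraries that differ widely, and the order of mitochondrial and nuclear members was not the same in each. In library 3 of the control superficial zone ND5 was at 9.20 TPM, CYTB at 14.1 TPM, ATP6 at 20.0 TPM and ND3 at 0, below ATP5F1B at 243 TPM. In the group means of the control condylar cartilage ATP5F1B, at 386 TPM, stood above ND6, at 335 TPM. Among the nuclear members ATP5F1B, the catalytic beta subunit of complex V, was highest at 289.6 TPM, and COX4I1, the common form of subunit 4 of complex IV, came next at 192 TPM. Within complex I the accessory subunit NDUFA3 was highest at 131 TPM and NDUFB3, also an accessory subunit, lowest of all nuclear members at 4.30 TPM. In complex II the membrane anchor SDHC stood at 111 TPM and the iron-sulfur subunit SDHB at 75.1 TPM. Complex III ranged from UQCRQ at 77.3 TPM to UQCRB at 19.6 TPM, both small subunits. In complex V the lowest was ATP5F1E, the epsilon subunit of the central stalk, at 66.6 TPM. The assembly factors of complex IV lay at the low end together with COX7A1 and NDUFB3, from 13.2 TPM for COX10, which acts in the synthesis of haem A, to 5.11 TPM for COX14, which acts on newly made COX1. The order of neighbours was not fixed across groups. The group means of ATP5F1B ran from 208 to 386 TPM and those of COX4I1 from 141 to 220 TPM, so these ranges overlapped.

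Over the 40 nuclear members, the median OA effect was small in the superficial zone and negative in the condylar cartilage, but no single member passed the test. The median log2 fold change was 0.08 in the superficial zone, with 23 of 40 members above 0, and −0.39 in the condylar cartilage, with 7 of 40 above 0. Over all genes tested the medians were 0.05 and −0.03. Between samples of a group, the median log2 CPM of the nuclear members had a pooled SD of 0.277, and its difference between groups was not tested. With library totals in place of TMM factors the nuclear superficial zone median turned to −0.12, where that of all genes was −0.24. By complex, the medians in the superficial zone were −0.03 for complex I, −0.34 for complex II, 0.52 for complex III, 1.10 for complex IV, −0.44 for its assembly factors and 0.19 for complex V. In the condylar cartilage they were −0.42, −0.53, −0.54, −0.13, −0.31 and −0.43 in the same order. These medians describe few genes each and carry no test.

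**Figure D3:**
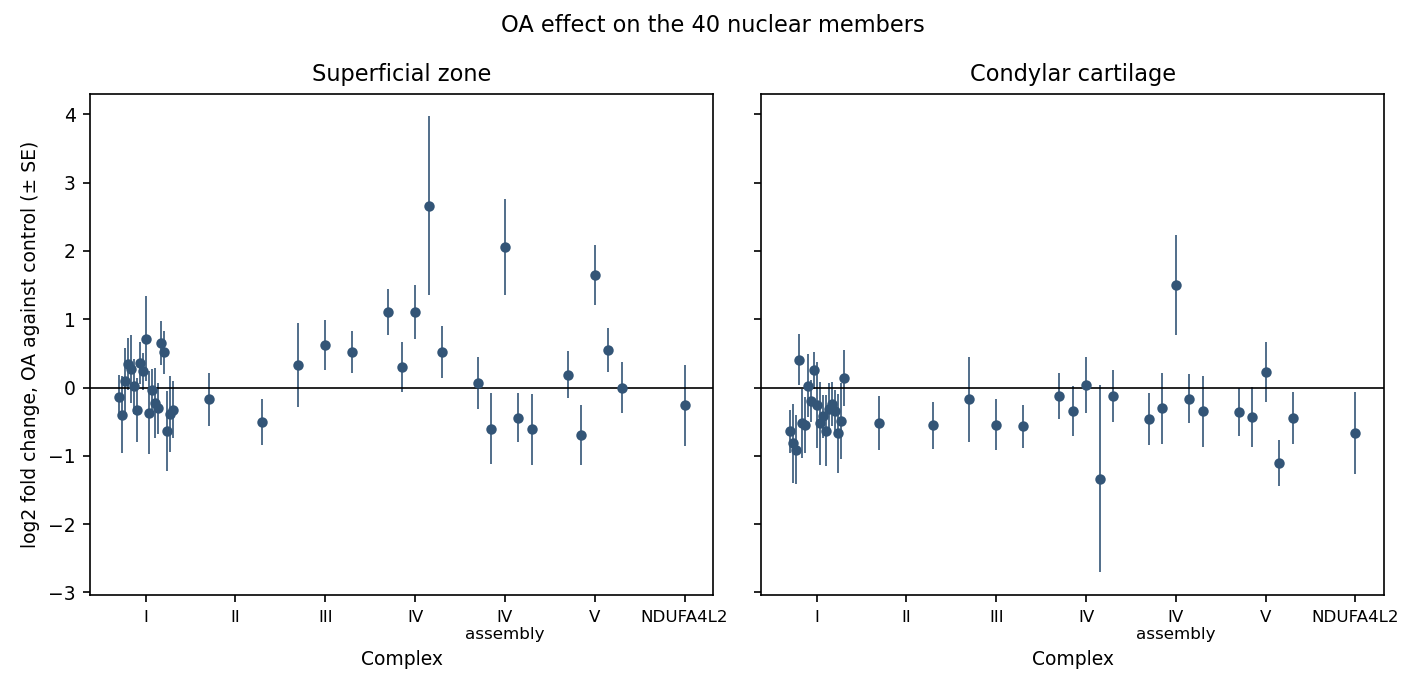
Log2 fold change of OA against control for each of the 40 nuclear members, with its approximate standard error as a bar, grouped by complex, in the superficial zone (left) and the condylar cartilage (right). The medians are 0.08 and −0.39, and no member passed the test in either zone.

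In the superficial zone no member passed the edgeR test (adjusted p of 0.192 or more), where 0.0208% of all genes did. An unadjusted p under 0.05 was found for 4 members, ATP5F1E, COX4I1, COX14 and COX5B, all higher in OA, where 11.1% of all genes had one in either direction. ATP5F1E was at 5.13, 3.59 and 6.82 CPM in control and at 22.2, 11.1 and 9.86 CPM in OA. Every OA library lay above every control library, and library 1 of OA was highest (log2 fold change 1.65 ± 0.44 SE, edgeR adjusted p = 0.192). COX4I1 was at 41.7, 38.5 and 37.4 CPM in control and at 98.1, 68.6 and 71.2 CPM in OA. It had the same order, with a log2 fold change of 1.10 ± 0.33 (edgeR adjusted p = 0.263). COX5B, a structural subunit of complex IV, was even among the OA libraries at 31.6, 29.8 and 28.8 CPM against 15.3, 14.6 and 12.6 CPM in control (1.11 ± 0.40, edgeR adjusted p = 0.350). COX14 rested on low counts, at 0.334 to 0.629 CPM in control and 1.11 to 3.04 CPM in OA. Markers of other cell types lay higher in the same contrast. The log2 fold change was above 0 in all 10 tested neutrophil and marrow markers (median 5.23), all 8 skeletal muscle markers (median 3.61) and all 4 adipocyte markers (median 2.88), with an unadjusted p under 0.05 for 10, 2 and 3 of them and no edgeR call. Their summed levels were 1.56 to 4.66, 14.2 to 168 and 64.1 to 72.8 CPM in control and 12.2 to 207, 291 to 1509 and 129 to 160 CPM in OA, and their part in the members' values was not tested.

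Of the 40 nuclear members, 10 had all OA superficial zone libraries above all control ones, against 10.1% of all genes. Among them were ATP5F1E, ATP5MC1, COX14, COX4I1, COX5B, COX7A1, UQCRC1 and UQCRQ. For COX7A1 the margin was minimal, with 1.79 CPM from 13 counts in library 1 of OA and 1.78 CPM from 16 counts in library 1 of control. The reverse held for COX18 and SDHC, against 7.72% of all genes. COX18 inserts COX2 into the membrane, and it was at 3.34, 5.51 and 4.19 CPM in control and 2.90, 2.86 and 2.75 CPM in OA. The negative end of the fold changes was led by ATP5F1C, the gamma subunit that turns within the ATP synthase, at 30.8, 46.6 and 38.3 CPM in control and 11, 33.8 and 38.3 CPM in OA (−0.69 ± 0.44, edgeR adjusted p = 0.573). Its groups overlapped, and library 1 of OA alone was below the control range.

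Library 1 of the OA superficial zone carried much of the spread in that group. It had the lowest value of the 12 libraries in 20 of the 40 nuclear members, against 30.8% of all genes, and the highest in 6, against 28.2%. The lowest included NDUFA12, an accessory subunit of complex I, at 2.35 CPM against 14.0 and 14.6 CPM in the other OA libraries. Those with the highest value were ATP5F1E, COX14, COX4I1, COX5B, NDUFB11 and NDUFS3. Without this library the OA superficial zone was left with 1 sample. The superficial zone median over the nuclear members was then 0.31, with 32 of 40 above 0. It was 0.27 when control condylar cartilage 3 was left out as well.

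**Figure D4:**
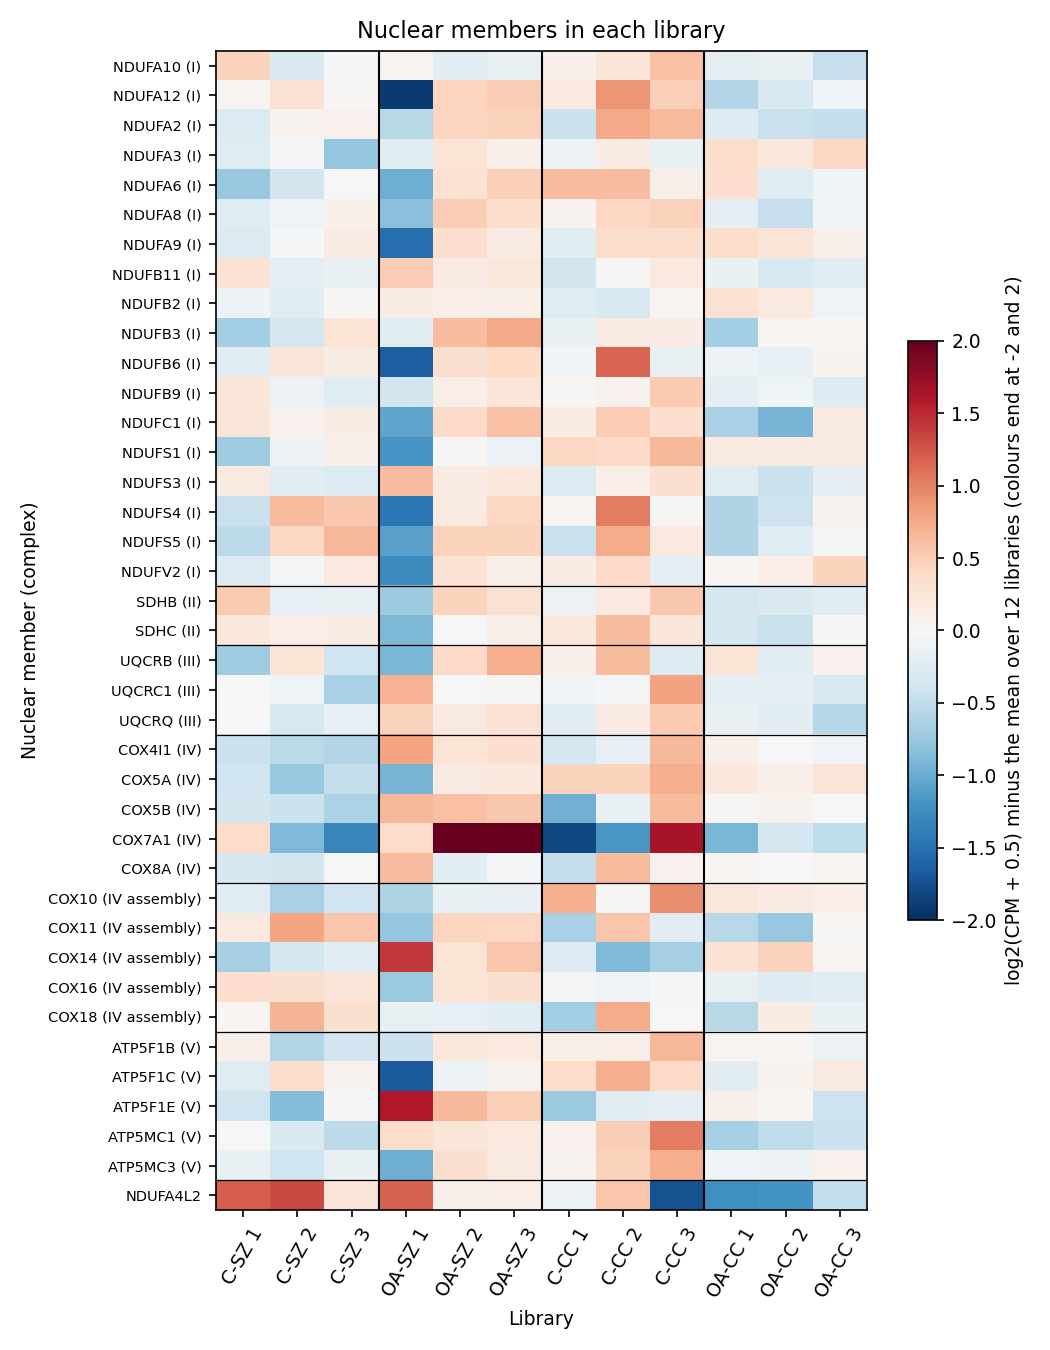
Level of 39 nuclear members in each library, as log2(CPM + 0.5) minus the member's mean over 12 libraries, with members grouped by complex and libraries by group (C control, OA osteoarthritis, SZ superficial zone, CC condylar cartilage). Library 1 of the OA superficial zone has the lowest value in 20 of them.

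In the condylar cartilage the member with the smallest p was ATP5MC1 (ENSOCUG00000016225), a gene for subunit c, which forms the rotor ring of the ATP synthase. It was at 33.6, 44.3 and 64.2 CPM in control and at 19.7, 21.9 and 23.2 CPM in OA. All OA libraries lay below all control libraries, with means of 47.3 ± 15.5 CPM (SD, n = 3) and 22.0 ± 1.67 CPM (n = 2). The log2 fold change was −1.10 ± 0.34 (SE), with an unadjusted p of 0.00748 in the edgeR test and an adjusted p of 0.233, so it did not pass. It did pass in edgeR with the 12 libraries as separate samples (adjusted p = 0.0355), a fit that counts the near-duplicate OA libraries as independent. It also passed in limma-voom with sample weights (adjusted p = 0.0460). ATP5MC3, whose mature protein is the same as that of ATP5MC1, had a log2 fold change of −0.45 ± 0.38, with 20.5, 26.9 and 32.6 CPM in control and 18.7, 18.1 and 20.7 CPM in OA. These groups overlapped by a narrow margin. How the authors' counting divided reads between genes for subunit c is not given in the sources used here.

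No member passed the edgeR test in the condylar cartilage, where 0.866% of all genes did. ATP5MC1 was the only one with an unadjusted p under 0.05, where 9.25% of all genes had one. The next by p among those lower in OA was NDUFA10, an accessory subunit of complex I, at 38.8, 43.6 and 54.5 CPM in control and 31.9, 32.6 and 26.1 CPM in OA (−0.64 ± 0.32, edgeR adjusted p = 0.599). Its libraries did not overlap. On the positive side stood COX14, at 0.608, 0.220 and 0.337 CPM in control and 1.11, 1.33 and 0.881 CPM in OA (1.51 ± 0.73, edgeR adjusted p = 0.580), and NDUFA3, at 5.63, 6.81 and 5.51 CPM against 7.97, 7.18 and 8.33 CPM (0.41 ± 0.38, edgeR adjusted p = 0.864). Those were the 2 members whose OA libraries all lay above control, against 15.0% of all genes. COX14 rested on low counts here too, at 4, 3 and 3 in control and 20, 24 and 13 in OA.

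OA libraries all lay below control libraries in 13 of the 40 nuclear members, against 14.8% of all genes. These were NDUFA8, NDUFA10, NDUFA12, NDUFB9 and NDUFS1 of complex I, both members of complex II, UQCRC1 of complex III, COX5A and COX16 of complex IV and its assembly, and ATP5F1B, ATP5F1C and ATP5MC1 of complex V. Among the 26 genes of the same families named through RefSeq, 8 showed this order and 24 lay below 0 in log2 fold change (median −0.43). SDHB was at 27.8, 34.3 and 43.8 CPM in control and 23.2, 24.3 and 25.6 CPM in OA, and SDHC at 44.9, 59.7 and 46.0 CPM against 30.1, 28.1 and 39.2 CPM. ATP5F1B was at 236, 239 and 348 CPM against 227, 223 and 201 CPM. SDHB and ATP5F1B were separated by narrow margins and SDHC by a wider one.

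Other features of the libraries differed in this contrast. Library 3 of the control condylar cartilage had the highest value of the 12 libraries in 13 of the 40 nuclear members, against 9.16% of all genes, and library 2 of that group in 9, against 13.7%. Without library 3 the median over the nuclear members was −0.25, with 10 of 40 above 0. Neutrophil and marrow markers, 10 of 11 listed genes in the table, summed to 618 to 2038 CPM in the OA condylar cartilage and to 0.733 to 12.8 CPM in the control condylar cartilage, where MMP8 was at 0 in every library. Erythroid markers, 6 of 10, summed to 357 to 1219 CPM in OA and 12 to 46.4 CPM in control. Skeletal muscle markers, 8 of 15, did not follow the states. They summed to 32.3, 60.6 and 20.7 CPM in OA and to 12.9, 4.40 and 2509 CPM in control, where library 3 alone was high. The part of these cells in the lower level of nuclear members was not tested. With library totals in place of TMM factors, which moved the median of all genes to 0.23, the nuclear median was −0.13.

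The difference of the OA effect between the zones was −0.50 in log2 as the median over the nuclear members, against −0.02 over all genes, with 8 of 40 above 0. It was −0.77, with 4 above 0, without library 1 of the OA superficial zone, which left that group with 1 sample. All 8 skeletal muscle markers lay below 0 in this difference (median −8.12), each with an unadjusted p under 0.05 and none past the adjusted threshold in edgeR. Their sums were highest in OA superficial zone 2 and 3 and control condylar cartilage 3. All 11 cartilage markers (median −1.39) and 3 of 4 adipocyte markers (median −2.17) also lay below 0. All 10 neutrophil and marrow markers (median 2.56) and all 6 erythroid markers (median 2.15) lay above 0. The part of these cells in the members' values was not tested. No member passed the edgeR test, nor did any gene (0.0% of 14438). An unadjusted p under 0.05 was found for 5 members, all with a lower OA effect in the condylar cartilage, where 8.76% of all genes had one in either direction. They were ATP5MC1 (−1.66 ± 0.47 SE, edgeR adjusted p = 0.415), COX4I1 (−1.22 ± 0.48, adjusted p = 0.522), UQCRQ (−1.08 ± 0.44, adjusted p = 0.530), ATP5F1E (−1.42 ± 0.63, adjusted p = 0.563) and UQCRC1 (−1.16 ± 0.52, adjusted p = 0.563). Among the nuclear members the largest positive value, 0.47 ± 0.58 for NDUFV2, an iron-sulfur subunit of complex I, was within its error. With library totals the nuclear median was −0.02 where the median of all genes was 0.50.

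ATP5MC1 and UQCRC1 were ordered in opposite ways in the 2 zones. In the superficial zone ATP5MC1 was at 31.6, 25.8 and 21.8 CPM in control and 40.7, 37.2 and 36.2 CPM in OA, against the values given above for the condylar cartilage. UQCRC1 (ENSOCUG00000002041), a core protein of complex III, was at 46.1, 43.5 and 29.5 CPM in the control and 75.2, 46.9 and 47.0 CPM in the OA superficial zone, and at 44.7, 45.6 and 81.1 CPM in the control and 40.6, 40.6 and 37.7 CPM in the OA condylar cartilage. In both genes all OA libraries lay above control in the superficial zone and below it in the condylar cartilage. The share of all genes with both orders was not computed. OA libraries all lay above control in the superficial zone for 10.1% of genes and below it in the condylar cartilage for 14.8%. For UQCRC1 the margins were under 1 CPM in the former and about 4 CPM in the latter, and the highest value of each zone came from a library that stood apart. UQCRQ, a small subunit of the same complex, was at 27.2, 21.8 and 24.2 CPM in the control and 37.7, 31.1 and 33.4 CPM in the OA superficial zone, whereas the condylar cartilage groups overlapped at 23.6, 30.6 and 39.5 CPM and 24.6, 23.4 and 18.2 CPM.

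**Figure D5:**
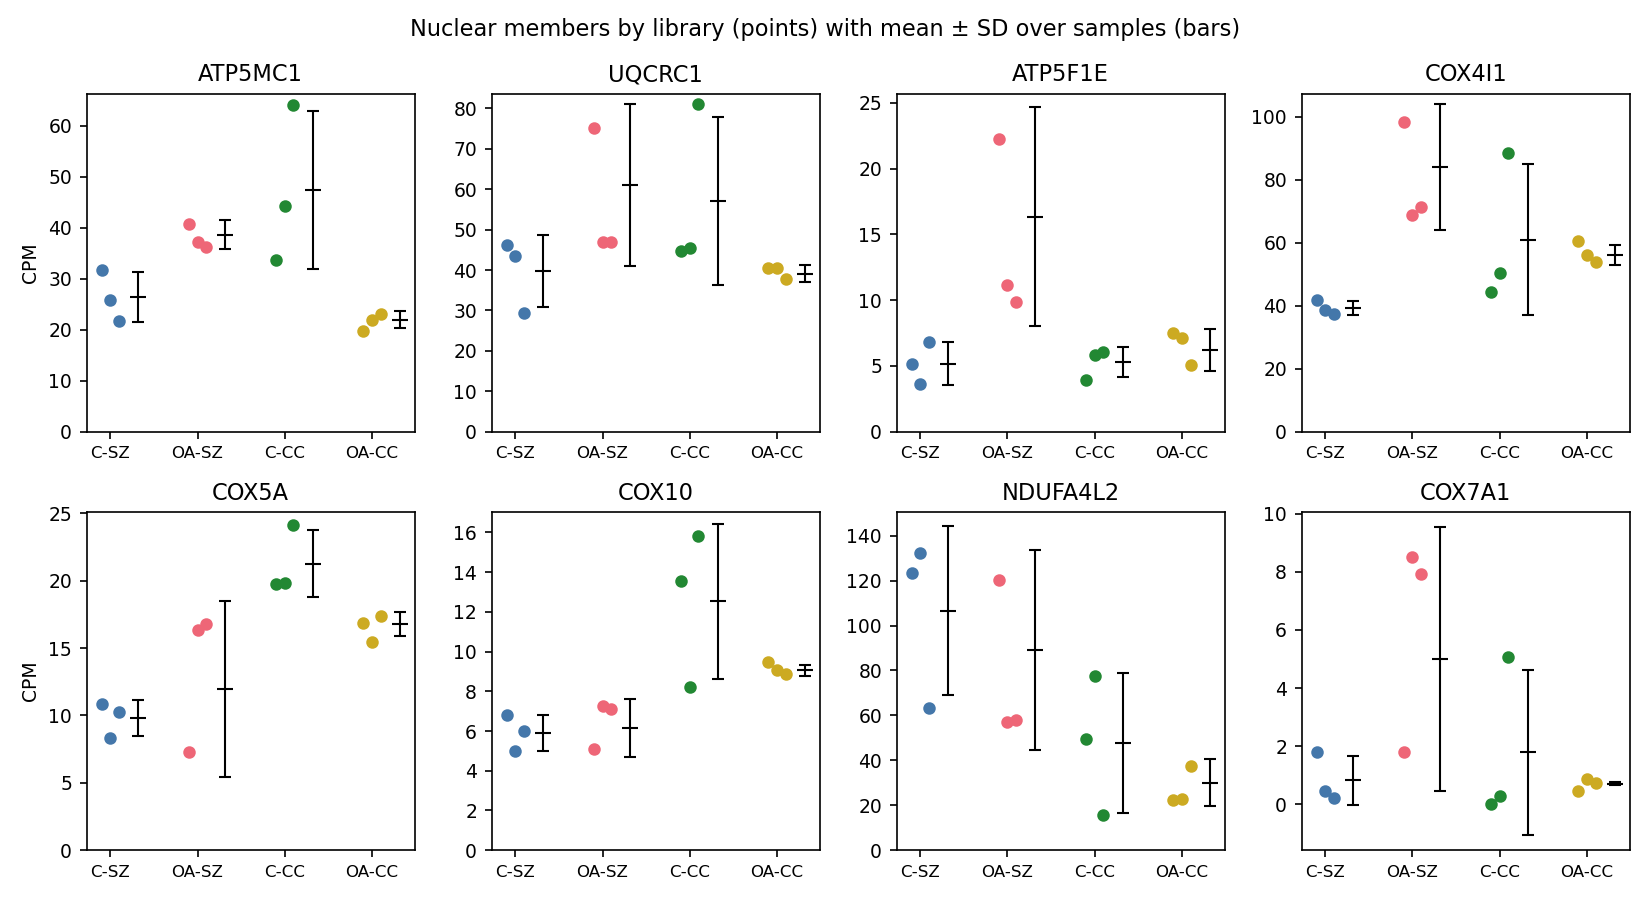
CPM of ATP5MC1, UQCRC1, ATP5F1E, COX4I1, COX5A, COX10, NDUFA4L2 and COX7A1 in each library (points) with the mean ± SD over samples (bars, n = 3 in control and n = 2 in OA groups, where near-duplicate libraries count as 1 sample; C control, OA osteoarthritis, SZ superficial zone, CC condylar cartilage). ATP5MC1 in the condylar cartilage and COX5A in control tissue are among the cases in which groups do not overlap. A lack of overlap in these directions was found for 14.8% and 12.6% of all genes.

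Between the zones of control tissue the median over the nuclear members was higher in the condylar cartilage, without a test of the median. The pooled SD of their median log2 CPM within groups was 0.277. The median log2 fold change, condylar cartilage against superficial zone, was 0.36, with 32 of 40 above 0, against 0.02 over all genes. It was 0.08 with library totals, where the median of all genes was −0.25, and 0.21 without library 2 of the control condylar cartilage. All 11 tested cartilage markers (median 2.02) and all 8 skeletal muscle markers (median 3.31, with a sum of 2509 CPM in control condylar cartilage 3) lay above 0 in the same contrast, none past the edgeR test, with an unadjusted p under 0.05 for 5 and 0 of them. Their part in the members' values was not tested. The medians were 0.25 for complex I, 0.17 for complex II, 0.51 for complex III, 0.64 for complex IV and 0.59 for complex V, and −0.37 for the assembly factors of complex IV. No member passed the edgeR test, where 7.49% of all genes did, and 3 had an unadjusted p under 0.05, against 18.6% of all genes.

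The member with the smallest p in that comparison was COX5A (ENSOCUG00000003258), a subunit of complex IV that faces the matrix. It was at 10.8, 8.33 and 10.3 CPM in the superficial zone and at 19.8, 19.9 and 24.2 CPM in the condylar cartilage, with means of 9.81 ± 1.30 (SD, n = 3) and 21.3 ± 2.51 CPM (n = 3). The groups did not overlap, with a log2 fold change of 1.12 ± 0.33 SE and an edgeR adjusted p of 0.0696. COX5A passed with 12 separate libraries (adjusted p = 0.0346), with only the control groups in the fit (0.0154), in DESeq2 (0.0219) and in limma-voom (0.00170), as well as without library 1 of the OA superficial zone (0.00824) and without both libraries that stood apart (0.0134). Over all alternatives the adjusted p ran from 0.00170 to 0.298, the highest being without library 2 of the control superficial zone. COX10 was at 6.80, 4.97 and 5.98 CPM in the superficial zone and 13.5, 8.21 and 15.8 CPM in the condylar cartilage (1.08 ± 0.35 SE, edgeR adjusted p = 0.0908). ATP5MC1 had a log2 fold change of 0.84 ± 0.30 (edgeR adjusted p = 0.129).

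In control, 9 of the 40 nuclear members had all condylar cartilage libraries above all superficial zone libraries, against 12.6% of all genes, and COX16 alone was below, against 15.8%. The 9 were ATP5F1B, ATP5F1C, ATP5MC1 and ATP5MC3 of complex V, COX4I1 and COX5A of complex IV, COX10, and NDUFA6 and NDUFS1 of complex I. NDUFS1, the largest iron-sulfur subunit of complex I, was at 23.6, 36.3 and 41.8 CPM in the superficial zone and 52.2, 50.8 and 61.7 CPM in the condylar cartilage. COX16, which assists the assembly of complex IV, was at 14.9, 14.8 and 14.2 CPM against 11.4, 11.1 and 11.3 CPM. Its values were narrow within each group, yet the log2 fold change of −0.37 ± 0.32 (edgeR adjusted p = 0.645) lay within the error of the fit.

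In OA tissue the nuclear members leaned the other way by a small amount, and the sign depended on the scaling. The median over the nuclear members was −0.15, with 16 of 40 above 0, against 0.01 over all genes. It was 0.07 with library totals, where the median of all genes was 0.25. Without library 1 of the OA superficial zone, which left that group with 1 sample, it was −0.43. No member passed the edgeR test, where 6.48% of all genes did. An unadjusted p under 0.05 was found for ATP5F1E (−1.38 ± 0.49 SE, edgeR adjusted p = 0.105), NDUFA4L2 (−1.56 ± 0.66, adjusted p = 0.155) and ATP5MC1 (−0.82 ± 0.36, adjusted p = 0.172), all lower in the condylar cartilage, where 27.5% of all genes had one in either direction. ATP5MC1 passed in edgeR with 12 separate libraries (adjusted p = 0.0437), a fit that counts the near-duplicate OA libraries as independent. Among members above 0 the smallest p was that of NDUFS1, at 16.8, 39.6 and 35.9 CPM in the superficial zone and 44.4, 44.1 and 44.0 CPM in the condylar cartilage (0.68 ± 0.41, edgeR adjusted p = 0.288), followed by ATP5F1C (0.68 ± 0.47, adjusted p = 0.353). All condylar cartilage libraries lay below all superficial zone libraries in 11 of the 40, against 23.9% of all genes, and above them in 2, COX10 and NDUFS1, against 23.0%.

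NDUFA4L2, which is induced by hypoxia-inducible factor and is known to lower complex I activity in other tissues, lay lower in the condylar cartilage in both states without passing the test. It was at 124, 133 and 63.3 CPM in the control and 120.5, 57.1 and 57.8 CPM in the OA superficial zone, and at 49.4, 77.7 and 15.5 CPM in the control and 22.2, 22.9 and 37.5 CPM in the OA condylar cartilage. The zones overlapped in control through 1 library on each side and did not overlap in OA. The log2 fold changes between zones were −1.16 ± 0.53 in control (edgeR adjusted p = 0.274) and −1.56 ± 0.66 in OA. Those of OA against control were −0.26 ± 0.59 and −0.66 ± 0.60 in the superficial zone and the condylar cartilage.

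COX7A1, the isoform of complex IV subunit 7a of heart and skeletal muscle, was high in the libraries with the most skeletal muscle RNA. It was at 1.78, 0.459 and 0.210 CPM in the control superficial zone, 1.79, 8.52 and 7.92 in the OA superficial zone, 0, 0.293 and 5.06 in the control condylar cartilage and 0.446, 0.884 and 0.745 in the OA condylar cartilage. The summed skeletal muscle markers, without COX7A1, were at 1509 and 1508 CPM in OA superficial zone 2 and 3 and at 2509 CPM in control condylar cartilage 3, and at 4.40 to 291 CPM elsewhere. ACTA1, skeletal muscle actin, was at 707 and 695 CPM and at 938 CPM in those 3 libraries. The log2 fold change of COX7A1 was 2.66 ± 1.31 in the superficial zone (edgeR adjusted p = 0.482) and −1.33 ± 1.37 in the condylar cartilage (adjusted p = 0.883). The latter had the other sign without control condylar cartilage 3 (1.91 ± 1.25, edgeR adjusted p = 0.742), when OA superficial zone 1 was left out as well (1.86 ± 1.10, adjusted p = 0.408) and in limma-voom (2.30 ± 0.98, adjusted p = 0.157). Between the zones of OA tissue it was −2.85 ± 1.48 (edgeR adjusted p = 0.229), and −3.50 when both libraries standing apart were left out. The latter fit left the OA superficial zone with 1 sample, so only its effect size is given. The part of muscle in it was not tested. COX8A, the isoform of subunit 8 found in most tissues, was at 11.7 to 26.0 CPM and its groups overlapped in all 4 comparisons of 2 groups.

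Genes that build or feed the complexes were also largely below the threshold. In the list of 41 assembly factors, 27 were tested and none passed in any comparison. The 22 of 27 genes of mitochondrial DNA transcription and replication that were tested had medians of −0.30 and 0.02 for OA against control in the superficial zone and the condylar cartilage, again with none past the test. Of the 18 tested genes of the tricarboxylic acid cycle, which supplies NADH and succinate, 17 lay below 0 for OA against control in the condylar cartilage (median −0.38) and 18 lay above 0 for condylar cartilage against superficial zone in control (median 0.49). None of the 18 passed. The 60 mitochondrial ribosomal proteins, part of the ribosome that translates the mitochondrial messages, had a median of −0.27 for OA in the condylar cartilage, with 15 above 0, and of 0.03 in the superficial zone.

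The remaining pathway lists gave 1 call. Of the 17 tested electron carriers and coenzyme Q enzymes, 15 were negative for OA in the condylar cartilage (median −0.27), and of the 8 carriers and porins of the inner and outer membrane 6 were (median −0.30). The 4 tested genes of the short list of further complex I and supercomplex genes had medians of −0.23 and −0.50 in the superficial zone and the condylar cartilage. Of 11 tested regulators of nuclear respiratory genes, PPARGC1A, a coactivator that drives the making of mitochondria, was higher in the condylar cartilage than in the superficial zone of control tissue, at 6.62 ± 2.04 CPM (SD, n = 3) against 2.27 ± 0.91 CPM (n = 3), with a log2 fold change of 1.54 ± 0.42 SE and an edgeR adjusted p of 0.0470. In that comparison 7.49% of all genes passed. No other gene of these pathway lists passed in the 5 comparisons. The cell type lists held calls of their own. For OA in the condylar cartilage 9 of 10 neutrophil and marrow, 4 of 6 erythroid and 1 of 10 macrophage markers were higher. There 0.866% of all genes passed in either direction. Among these markers was LCN2 at 363 ± 283 CPM (SD, n = 2) against 0.861 ± 1.49 CPM (n = 3, log2 fold change 8.74 ± 1.54 SE, edgeR adjusted p = 0.0263). Between the zones of control tissue LPL, CD68 and CSF1R were higher and PRG4, COL3A1, MRC1, C1QB and C1QC lower in the condylar cartilage. Between those of OA tissue ALAS2, EPB42 and LYZ were higher and PRG4, COL3A1, C1QB, C1QC and CIDEA lower. Of all genes, 7.49% passed between the zones in control and 6.48% between those in OA.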

How the data were processed

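Bulk RNA was extracted with RNeasy Micro, depleted of ribosomal RNA with QIAseq FastSelect and made into directional libraries with NEBNext Ultra II, per the labels. Per the submitters' processing notes the tools were Salmon 1.1.0, STAR 2.7.9a, Trim Galore 0.6.7, MultiQC 1.13, StringTie 2.1.0 and DESeq2 1.26.0 on genome OryCun2.0, their role and order not being given. The authors deposited estimated counts in whole numbers, feature lengths and TPM. Per the file headers the counts are both normalised and raw, and they were used as raw. The deposited log2 TPM was not used.

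The main test was the quasi-likelihood F test of edgeR 4.0.16 under R 4.3.3 (TMM factors, filterByExpr with a minimum count of 10, 14438 genes, Benjamini-Hochberg threshold 0.05) in 1 model of the 4 groups, with each near-duplicate pair summed. The SE was approximated as the size of the log2 fold change over the root of F. CPM are counts per 1000000 of the library total times its TMM factor. The fit was run on simulated counts with a spread near the low end of that between samples here and changes larger than most members had. That run does not show how the fit performs at the spread and changes of the members. DESeq2 1.42.0 and limma 3.58.1 (voom) were among the alternatives. The members and gene lists were chosen with earlier results of these data known. Values were given for all mitochondrial members, the 2 nuclear members of smallest p in each direction of a comparison, tissue isoforms, and the highest and lowest TPM of each complex. UQCRC1, COX5B and other nuclear members were chosen after their values were seen. Symbols outside the members came from the deposited table or RefSeq (mOryCun1.1), and no coordinates are given because the builds differ. Values of 1 nuclear member are not reported here by name.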

Additional observations from a re-analysis of the deposited data

Results flagged for a closer look

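In 2 nuclear members every OA library lay above every control library in the superficial zone and below every control library in the condylar cartilage. Over all genes 10.1% had the former order and 14.8% the latter, and the share with both was not computed. For UQCRC1 the highest control and the lowest OA value of the superficial zone were close, at 46.1 and 46.9 CPM. The difference between the OA effects was −1.66 in log2 for ATP5MC1, a gene for subunit c of the ATP synthase, and −1.16 for UQCRC1, a core protein of complex III. That difference was tested as an interaction in edgeR and passed in neither, with unadjusted p of 0.00445 and 0.0456 and adjusted p of 0.415 and 0.563. Over the 21 alternatives that gave this contrast, ATP5MC1 ranged from −1.85 to −1.10 and UQCRC1 from −1.31 to −0.42, with lowest adjusted p of 0.0698 and 0.334.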

How the results depend on the processing

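No member passed under any setting in the difference between zones. The counts below come without the share of all genes passing in the same fit, so they cannot show an excess among members. In the main edgeR test that share was 0.0208% and 0.866% for OA in the superficial zone and the condylar cartilage. It was 7.49% and 6.48% for the zones in control and in OA. The fit with 12 separate libraries counts the near-duplicate libraries as independent. For OA against control in the superficial zone 1 member passed in DESeq2 (ATP5F1E, adjusted p = 0.0470), and in the condylar cartilage 1 with 12 separate libraries and 1 in limma-voom (ATP5MC1 in both). Between zones in control, 2 passed with 12 separate libraries (COX5A and COX10), 1 in DESeq2, 1 with only the groups compared and 1 without both libraries that stood apart (COX5A in each), and 10 in limma-voom, of which ATP5F1B, ATP6, COX10, COX2, COX3, COX5A, CYTB, ND5 and NDUFA6 were higher and COX11 lower in the condylar cartilage. Between zones in OA, 1 passed with 12 separate libraries (ATP5MC1). Without both libraries that stood apart the OA superficial zone had 1 sample, so no count is given for this comparison in that fit. Leaving out each library in turn, 0 members passed in every comparison but the zones in control, where 0 to 2 did, the 2 being COX5A and COX10 without library 1 of the OA superficial zone.

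Leaving out each library in turn, the nuclear median lay between 0.012 and 0.31 for OA in the superficial zone, −0.50 and −0.25 for OA in the condylar cartilage, −0.77 and −0.40 for their difference, 0.21 and 0.47 for the zones of control tissue, and −0.43 and −0.12 for those of OA tissue. The mitochondrial median lay between 0.34 and 3.87, −3.36 and −0.090, −4.56 and −0.99, 0.81 and 4.49, and −2.80 and −0.033 in the same order. Its extremes came without library 1 of the control superficial zone (3.87, −4.56 and 4.49) and without library 3 of the OA condylar cartilage (−3.36 and −2.80). The fit without that OA library left its group with 1 sample. So did the fit without library 1 of the OA superficial zone, which gave the nuclear values 0.31, −0.77 and −0.43. Library totals in place of TMM moved the nuclear difference between zones to −0.020 and the median of all genes to −0.24, 0.23, 0.50, −0.25 and 0.25 in the same order.

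Same-numbered libraries had correlations of −0.26 to 0.29 in their deviations from group means. Differently numbered libraries were not compared in this way, so these values cannot show whether samples were paired. With the replicate block on 12 libraries no member passed in any comparison, and the nuclear medians were 0.17, −0.39, −0.54, 0.36 and −0.20. The cause of these shifts was not tested.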
